A study of Mus musculus with 2 samples.

Results

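The T cell receptor complex and the proteins that carry its signal inward were followed through 38 named genes, chosen by function: the CD3 chains, the coreceptors, surface receptors of T cells, kinases and phosphatases, adaptors, downstream enzymes, NFAT factors and genes that attenuate the signal. Of these, 37 had a probe set that names them alone, among 22180 genes measured in all. Lck, the coreceptor-bound kinase that starts the cascade, had none and is not analysed here. Each measured member had exactly 1 such probe set, so no second probe set could be set beside it.

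There were 2 Affymetrix whole-transcript arrays, each of RNA from freshly isolated mouse spleen cells of genotype Fx-/-. Fx, now Gfus, encodes an enzyme that makes GDP-fucose from mannose, so both groups lacked that route, and a wild-type array is not part of the comparison. One array came from the fucose-treated group (on fucose) and 1 from the group with no fucose treatment (off fucose). The labels used here give neither age, sex or number of mice nor the fucose dose or its duration. Sex-linked genes differed between the arrays, as given below, so sex and treatment cannot be separated. Cells carrying B220 or CD11b were removed with beads and cells carrying CD11c were then retained, and the labels call the product cDC1, the type 1 conventional dendritic cell, whereas the series title calls it cDC1-enriched.

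The T cell receptor recognises peptide on MHC molecules but has no signalling domain of its own. The CD3 chains carry tyrosine motifs that Lck phosphorylates, Zap70 docks on them and phosphorylates the adaptors Lat and Lcp2, and these gather Plcg1, Vav1 and further proteins that open the calcium, Ras and NF-kappaB branches. Spleen is rich in naive T cells, which carry most of the set, while dendritic cells lack the CD3 chains. Spleen cDC1 do carry Cd8a, as a pair of CD8 alpha chains without Cd8b1.

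The members were among the brightest genes on both arrays, and nearly all were slightly dimmer off fucose. Of the 37, 36 had a lower log2 intensity off fucose, Malt1 was the exception at 0.02, and the median difference (off minus on) was -0.23, a 1.17-fold lower intensity. A lower value off fucose was found in 50.0% of all genes measured and in 61.8% of the 4436 genes in the top 20% by mean level. Only Trat1 was at least 1.5-fold lower, which is 2.70% of the members against 2.28% of all genes and 3.67% of the top 20%, so by size of change the members were near the background. None was at least 2-fold apart, where 0.257% of all genes were lower and 1.20% higher, or 0.383% and 1.44% of the top 20%. None was at least 1.5-fold higher, against 3.21% of all genes and 3.40% of the top 20%. Since each side had a single array, none of these differences could be tested or checked in a replicate.

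The shift was small, and the members stood close together. The interquartile range of the members' differences ran from -0.33 to -0.16, a width of 0.18, whereas that of the top 20% of genes ran from -0.24 to 0.09, a width of 0.33, around a median of -0.07. The members' median lay at a value that 26.6% of those genes reached or went below. The members were also brighter than that set, with a median level on fucose of 8.92 against 7.05. Their spread was not compared with that of genes of equal level. After loess, which sets the trend across intensities to about 0, the members' median was -0.18 and 35 of 37 were lower, with Cd28 as well as Malt1 on the other side. Across the 37 members, the difference had a Pearson correlation of 0.06 with the mean level (Spearman 0.05); these genes share both arrays, and the value is a description. In a mixed preparation, fewer T cells and less of this RNA per T cell cannot be told apart.

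**Figure D1:**
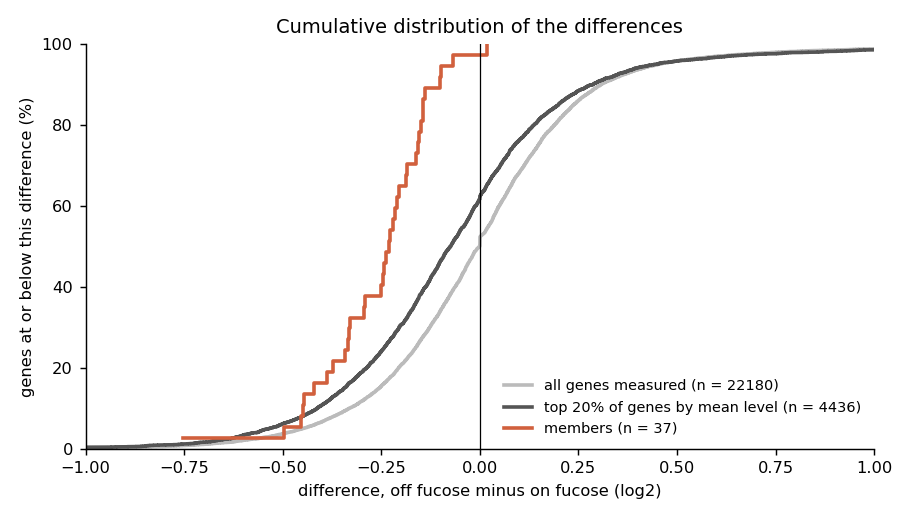
Cumulative share of genes (percent) at or below each log2 difference, off fucose minus on fucose, for the 37 members, the 4436 genes in the top 20% by mean level and all 22180 genes measured; differences beyond 1 on either side are not drawn. The members' curve rises within a narrow span left of 0 and reaches its end at Malt1 (0.02), while 61.8% of the bright genes lie left of 0.

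On the on-fucose array, 36 of the 37 members lay in the top 20% of genes, 26 in the top 5% and 10 in the top 1%. The counts off fucose were 36, 25 and 9. The median percentile rank was 97.9 on fucose and 97.2 off fucose, and the rank was lower off fucose in 36 members, by at most 3.16 points. A lower rank off fucose was found in 11680 of all 22180 genes and in 2426 of the 4436 in the top 20% by mean level. Nfatc2 alone lay below the top 20%, at percentiles 76.8 and 75.3. Probe sets differ in how strongly they respond, so a rank describes the array and does not order the amounts of different RNAs.

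**Figure D2:**
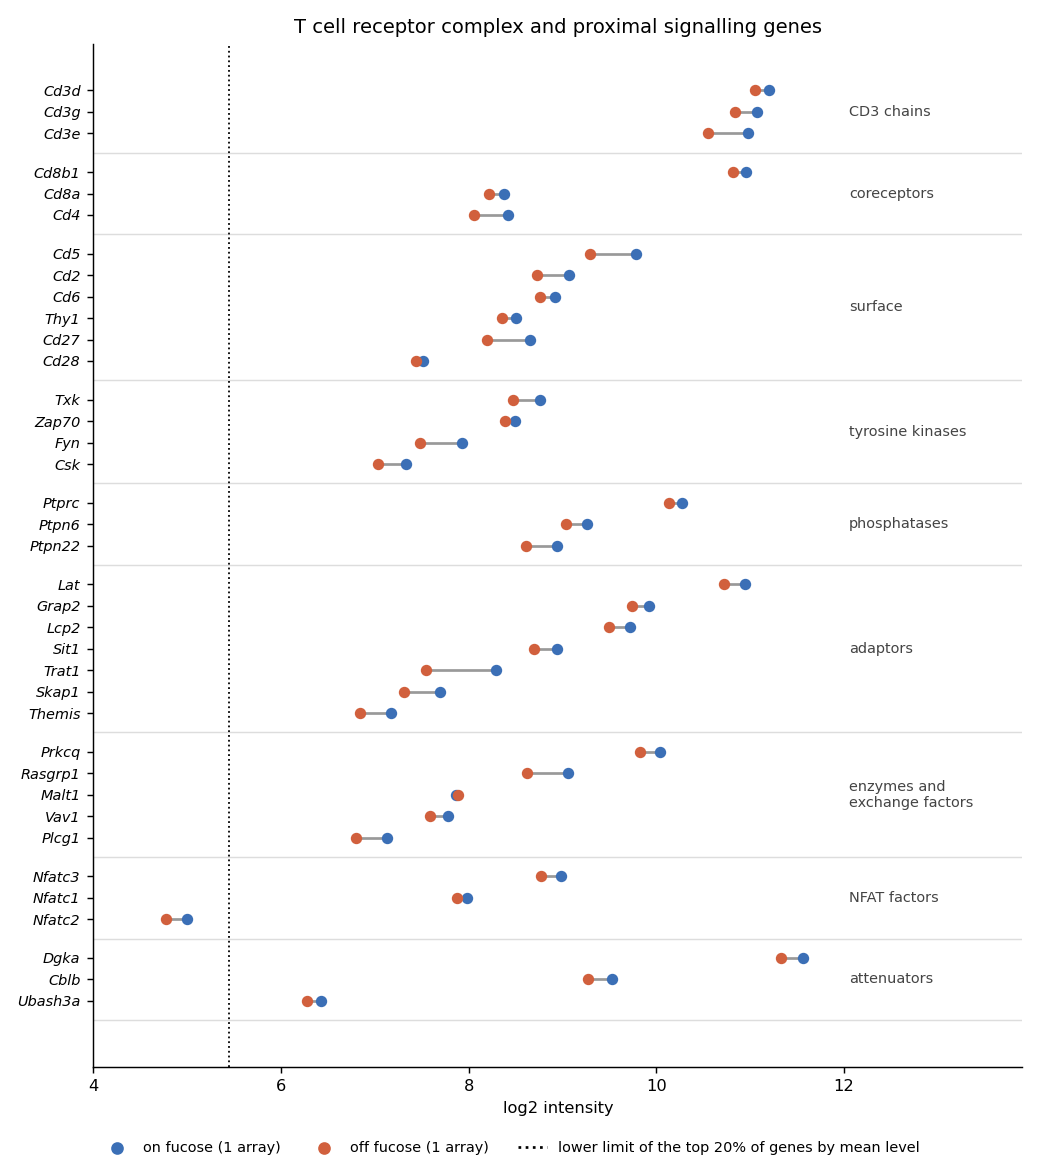
Log2 intensity (horizontal axis) of the 37 members on the on-fucose and the off-fucose array, 1 point per array, grouped by role. The off-fucose point lies left of the on-fucose point in all but Malt1, the gap is widest in Trat1 (8.29 and 7.54), and only Nfatc2 lies below the dotted limit of the top 20% of genes (5.44).

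The CD3 chains, which pair with the receptor and carry its tyrosine motifs, were within the top 1% of genes on both arrays. For Cd3d (probe set 17516691) the log2 intensity was 11.20 on and 11.05 off fucose (-0.16). Cd3g (17526456) had 11.08 and 10.83 (-0.24). Cd3e (17526464) had 10.97 and 10.55 (-0.42), a 1.34-fold lower intensity off fucose and the widest gap of these chains. All were lower off fucose, by amounts that differ by more than the shift of Cd3d itself, and whether they differ from each other cannot be tested. Cd3g, Cd3d and Cd3e stand next to each other on chromosome 9 in RefSeq.

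The stretch before the start of each CD3 gene is shown because these genes are the core of the complex and were lower together, and that of Trat1, an adaptor of the same complex, because it had the largest difference. Each is the 250 bases before the RefSeq gene start in build GRCm38.p6, read 5′ to 3′ on the gene's strand. Capitals mark AGGAAG or its reverse complement, letters around the GGAA core that ETS family factors bind. The windows are Cd3g at chr9:44980432-44980681 (- strand), Cd3d at chr9:44981536-44981785 (+ strand), Cd3e at chr9:45009612-45009861 (- strand) and Trat1 at chr16:48772063-48772312 (- strand).
Cd3g: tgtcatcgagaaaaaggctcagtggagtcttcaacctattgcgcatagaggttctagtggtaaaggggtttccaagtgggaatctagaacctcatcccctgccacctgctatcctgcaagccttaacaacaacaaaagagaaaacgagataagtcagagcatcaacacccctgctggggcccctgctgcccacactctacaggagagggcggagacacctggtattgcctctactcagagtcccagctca
Cd3d: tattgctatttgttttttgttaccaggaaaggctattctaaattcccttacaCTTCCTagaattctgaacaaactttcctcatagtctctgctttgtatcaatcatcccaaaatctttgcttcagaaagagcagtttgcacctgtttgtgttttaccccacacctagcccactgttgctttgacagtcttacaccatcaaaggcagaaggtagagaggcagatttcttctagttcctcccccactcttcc
Cd3e: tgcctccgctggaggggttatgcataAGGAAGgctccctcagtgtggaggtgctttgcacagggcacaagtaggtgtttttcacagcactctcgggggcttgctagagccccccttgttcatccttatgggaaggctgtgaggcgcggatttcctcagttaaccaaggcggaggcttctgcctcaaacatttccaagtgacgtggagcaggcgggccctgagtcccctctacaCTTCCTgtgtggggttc
Trat1: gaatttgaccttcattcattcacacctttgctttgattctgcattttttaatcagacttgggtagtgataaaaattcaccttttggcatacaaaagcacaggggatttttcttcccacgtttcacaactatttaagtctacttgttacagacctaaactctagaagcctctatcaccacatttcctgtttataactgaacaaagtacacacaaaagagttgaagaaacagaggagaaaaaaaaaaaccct
Cd3e held 2 matches, Cd3d held 1, and Cd3g and Trat1 held none, so these letters were present and absent alike among genes that were lower off fucose. RefSeq windows were found for 29 of the 38 listed genes, 42 windows in all since some genes have several starts.

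In all, 12 strings were searched on both strands in the members' 42 windows and in all 32851 windows of the same length. AGGAAG was in 59.5% of the members' windows and in 29.5% of all, in 19 of the 29 genes. The shorter GGAAG, which AGGAAG contains, was in 76.2% and 64.1%, while CAGGAA, which can overlap both, was in 35.7% and 25.7%. TCAAAG, letters that TCF and LEF factors bind, was in 23.8% against 13.8%. The RUNX string TGTGGT was in 11.9% against 14.0%, and the longer TGTGGTT in 4.76% against 4.40%. The E-box form CAGNTG was in 45.2% against 44.8%, and the wider CANNTG, which takes in every CAGNTG match, in 71.4% against 66.2%. The GATA string AGATAA was in 9.52% against 9.99%, and the NFAT string TGGAAA in 19.0% against 18.6%. The GC box GGGCGG was in 38.1% against 32.7%, and the TATA box TATAAA in 9.52% against 12.4%. A match is a run of letters and not a shown binding site, and windows of 1 gene can overlap.

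The coreceptors, which bind MHC beside the receptor, were lower off fucose by unequal amounts. Cd4, which binds MHC class II on helper T cells, had 8.42 and 8.05 (-0.37). Cd8a, shared by cytotoxic T cells and cDC1, had 8.37 and 8.22 (-0.16). Cd8b1, the beta chain of cytotoxic T cells that cDC1 lack, had 10.95 and 10.81 (-0.14). Both CD8 chains thus moved by similar amounts, and their genes lie side by side on chromosome 6.

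Among surface receptors that tune or costimulate the signal, all 6 were lower off fucose, with a median of -0.25. Cd5, a brake on receptor signalling, had 9.79 and 9.29 (-0.50), the second largest difference of all members after Trat1. Cd27, a costimulatory receptor of the TNF receptor superfamily, had 8.65 and 8.19 (-0.45), and the adhesion receptor Cd2 had 9.07 and 8.72 (-0.34). Smaller differences were seen in Cd6, a relative of Cd5 on the same chromosome, at 8.92 and 8.76 (-0.16), in the GPI-anchored Thy1 at 8.50 and 8.35 (-0.15), and in the costimulatory receptor Cd28 at 7.51 and 7.44 (-0.07). Cd5 and Cd6, both on chromosome 19, therefore differed by quite different amounts.

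Tyrosine kinases were represented by 4 measured members, all lower off fucose. Fyn, the Src family kinase that works beside Lck, had 7.93 and 7.48 (-0.45). Csk, which phosphorylates the inhibitory tail of Lck and Fyn, had 7.33 and 7.04 (-0.29), and the Tec family kinase Txk had 8.76 and 8.47 (-0.29). Zap70, recruited to the phosphorylated CD3 motifs, had 8.49 and 8.39 (-0.10). Zap70 was the least changed of these and Fyn the most.

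The phosphatases that set the kinases' activity showed the same direction. Ptprc, the CD45 gene of all white blood cells, had 10.27 and 10.13 (-0.14). Ptpn6, which encodes SHP-1, had 9.26 and 9.04 (-0.21), and Ptpn22, a partner of Csk, had 8.94 and 8.61 (-0.33). Ptprc had the smallest difference of this group, whose members are all also used by other leukocytes.

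The adaptors held the largest single difference. Trat1, a transmembrane adaptor that associates with the receptor complex (probe set 17330805), went from 8.29 to 7.54 (-0.75, 1.69-fold lower off fucose), and its percentile rank went from 96.1 to 93.0. The other adaptors were all within 1.5-fold. Lat, the membrane scaffold that Zap70 phosphorylates, had 10.95 and 10.72 (-0.23), and its partners Lcp2, which encodes SLP-76, and Grap2, which encodes Gads, had 9.72 and 9.49 (-0.23) and 9.92 and 9.74 (-0.18). The scaffold and these partners thus had nearly equal differences. Skap1, an adaptor that links the receptor to integrins, had 7.69 and 7.31 (-0.39), Themis, needed for thymocyte selection, had 7.17 and 6.85 (-0.33), and the transmembrane adaptor Sit1 had 8.94 and 8.69 (-0.25).

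Downstream enzymes included the only member that was not lower. Malt1, the paracaspase of the NF-kappaB branch, had 7.87 and 7.89 (0.02). Rasgrp1, the exchange factor that activates Ras on diacylglycerol, had 9.06 and 8.62 (-0.45), while Prkcq, the protein kinase C isoform of the T cell synapse, had 10.03 and 9.83 (-0.21). Plcg1, the phospholipase that makes diacylglycerol and inositol trisphosphate, had 7.13 and 6.80 (-0.33), and Vav1, an exchange factor for Rac, had 7.78 and 7.59 (-0.19). Rasgrp1 and Plcg1, at the entry points of the Ras and calcium branches, were thus lower, and Prkcq was lower beside Malt1 near 0. Whether the branches differ was not tested, and so few genes do not describe a branch.

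NFAT factors enter the nucleus when calcineurin removes their phosphates. Nfatc3 had 8.98 and 8.78 (-0.20), Nfatc2 4.997 and 4.78 (-0.22) and Nfatc1 7.98 and 7.88 (-0.10). Genes that attenuate the signal were lower too. Dgka, a kinase that consumes diacylglycerol, was the brightest member on both arrays at 11.57 and 11.33 (-0.24). Cblb, a ubiquitin ligase that restrains activation, had 9.52 and 9.27 (-0.25), and Ubash3a, a negative regulator of receptor signalling, had 6.43 and 6.28 (-0.14). Activating and attenuating members therefore did not separate by direction.

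**Figure D3:**
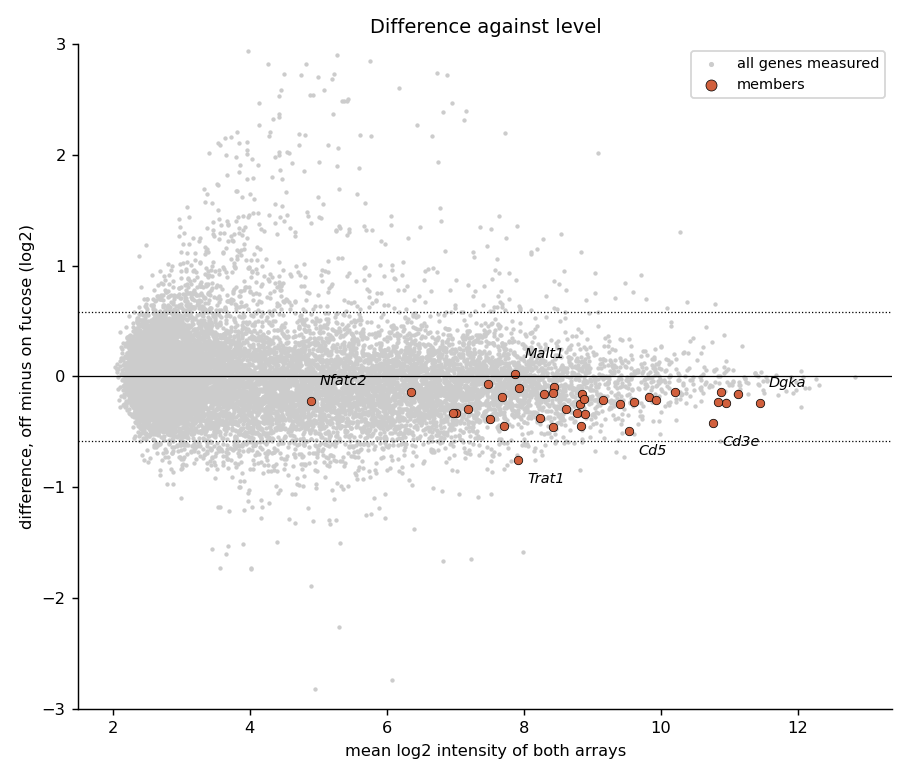
Log2 difference, off fucose minus on fucose, against the mean log2 intensity of both arrays, for all genes measured (grey) and the 37 members (red); dotted lines mark 1.5-fold, and 28 genes with differences beyond 3 on either side fall outside the plotted range. The members form a band just below 0 that shows no slope with level, with Trat1 alone below the lower dotted line.

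Members used mainly by T cells and members that other white blood cells also use had like differences. The 20 measured genes of the first kind, such as the CD3 chains, Zap70 and Lat, were all lower with a median of -0.22. The 17 of the second kind, such as Ptprc, Ptpn6 and Vav1, had 16 lower and a median of -0.24. The grouping follows textbook expression and is not strict, since Cd8a, which cDC1 also carry, was counted in the first kind. The difference between these medians has no test.

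Other genes of T cell receptor signalling, outside the 38, showed the same direction less evenly. Of 65 listed, 53 were measured, 41 were lower off fucose and 12 higher, with a median of -0.19 and an interquartile range from -0.35 to -0.06. At least 1.5-fold lower were Nck1, an adaptor to the actin skeleton (5.97 and 5.10, -0.87), Lax1, an adaptor related to Lat (7.25 and 6.48, -0.77), and Slamf6, a costimulatory receptor of lymphocytes (9.83 and 9.10, -0.72). The only one at least 1.5-fold higher was Themis2, the relative of Themis in B cells and macrophages, at 3.91 and 4.95 (1.04). Those past 1.5-fold were 5.66% lower and 1.89% higher of the measured genes, against 2.28% and 3.21% of all genes. In the top 20% by mean level the shares were 3.67% and 3.40%, and 39 of the 53 lay in the top 20% on fucose. The 5.66% is 3 genes.

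Paralogues of members, many of which serve B cells or myeloid cells, differed more widely than the members they resemble. They are not a set apart from T cells, since Dgkz, Cbl and Themis2 were also counted among the other signalling genes above. Pairs were formed by family for 15 members and 20 paralogues. All 15 members were lower off fucose, which was known when the pairs were formed. Of the paralogues, 11 were higher, 8 lower and 1, Rasgrp3, identical. Among all genes measured, 10566 of 22180 were higher, so by direction the paralogues were near the background. Plcg2, the B cell and myeloid counterpart of Plcg1, had 2.76 and 4.58 (1.82), and Btk, a Tec family kinase like Txk, had 3.05 and 4.18 (1.13). Skap2 had 3.83 and 4.76 (0.93), Syk, the relative of Zap70, had 2.56 and 3.36 (0.80), Rasgrp4 had 2.92 and 3.72 (0.80) and Lat2 had 3.41 and 4.10 (0.69). The on-fucose values of these lay between 2.56 and 3.83, beside an array median of 2.81. Outside the pairs, Fcer1g, the Fc receptor chain that carries the same kind of tyrosine motif as the CD3 chains, had 5.31 and 7.58 (2.27), and the B cell receptor chain Cd79a had 3.21 and 2.53 (-0.69). Brighter paralogues went both ways, with Prkcd, a relative of Prkcq, at 6.52 and 7.02 (0.50), Prkcb at 7.57 and 7.46 (-0.11), Grap at 6.70 and 6.36 (-0.34), Rasgrp2 at 8.50 and 7.99 (-0.51), Dgkz at 8.74 and 8.37 (-0.37) and Cbl at 9.18 and 9.28 (0.10).

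**Figure D4:**
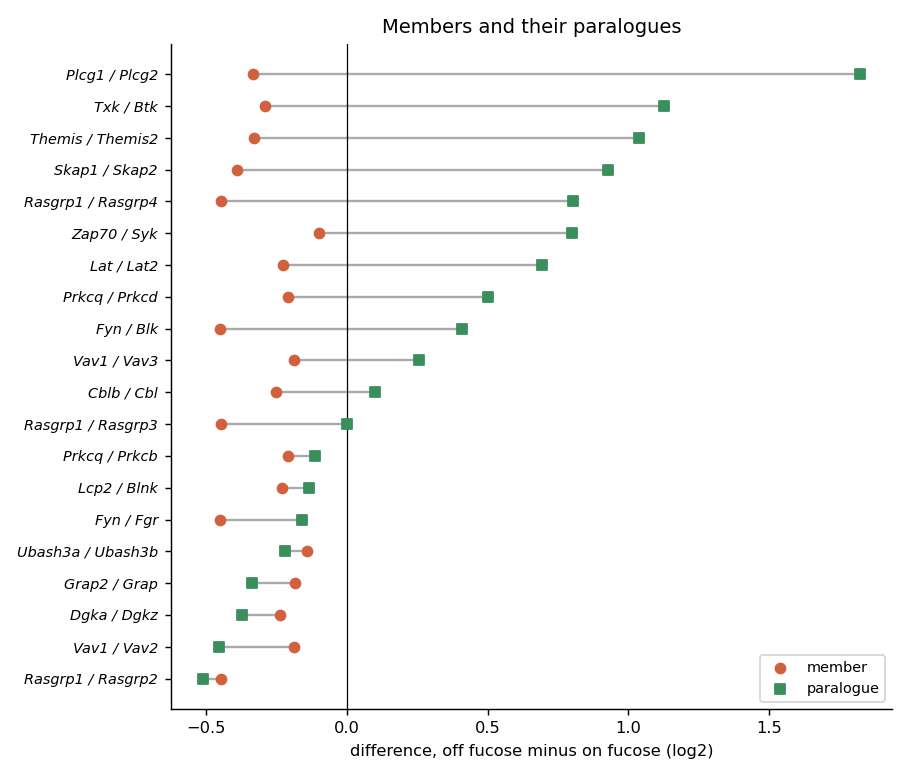
Log2 difference, off fucose minus on fucose, of members (circles) and of a paralogue of each (squares), ordered by the paralogue's difference; a member with several paralogues appears on several lines. All circles lie left of 0, and the squares run from Rasgrp2 (-0.51) to Plcg2 (1.82).

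Marker lists of T cells and of other cells did not all move alike. T cell identity genes outside the members were lower in 8 of 8 measured, by a median of -0.36, and 7 lay in the top 20% on fucose, with Lef1 at 10.42 and 10.03, S1pr1 at 10.06 and 9.88 and Il7r at 9.87 and 9.52. Of 10 B cell markers, none lay in the top 20% on fucose and the median difference was -0.01, with summed intensities of 106 on fucose and 99.98 off fucose. NK cell markers were lower in 8 of 10 with a median of -0.45, but 5 of the 10 lay below 4 on both arrays. The brightest went both ways, with Prf1 at 8.09 and 7.44 (-0.65) and Klrd1 at 7.50 and 7.57 (0.07). So did dim ones, with Klrb1c at 2.99 and 2.49 (-0.50) and Ncr1 at 3.03 and 3.60 (0.57). Of 11 type 1 dendritic cell markers, 9 were higher off fucose with a median of 0.72, and summed intensities were 339.6 and 722. Its brightest were Naaa at 5.97 and 8.36 (2.39), Ly75 at 6.80 and 5.86 (-0.93) and Itgae at 6.02 and 5.64 (-0.38), and the defining chemokine receptor gene Xcr1 had 2.90 and 3.43 (0.53). The 7 genes of the wider dendritic cell list were all higher with a median of 0.94, and the MHC class II genes H2-Ab1 at 9.63 and 10.94 (1.31), H2-Aa at 8.11 and 9.06 (0.95) and H2-Eb1 at 7.54 and 8.67 (1.13) were its brightest. Itgax, the CD11c gene of the selection, had the smallest difference of that list, at 3.83 and 3.86 (0.03). In the type 1 list 4 of 11 genes, Xcr1 among them, lay below 4 on both arrays, as did 2 of 7 in the wider list, Itgax among them. On fucose the medians of these lists were 4.18 and 3.85, beside an array median of 2.81. T cell genes were thus bright on both arrays, while the dendritic cell lists mixed bright and dim genes. Levels of different probe sets do not give the share of either cell type.

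All 11 granulocyte precursor markers were higher off fucose with a median of 3.54, and their summed intensity was 119 on fucose and 2992 off fucose. All 8 measured erythroid markers were higher by a median of 2.51, with summed intensities of 88.3 and 533, and all 9 markers of dividing cells by a median of 2.09. The 7 monocyte and macrophage markers were higher by a median of 0.45, while the 9 housekeeping genes had a median of 0.02. The members' own summed intensity was 27345 on fucose and 23067 off fucose. What share of the members' shift goes with these cell types was not tested. Xist, the RNA of the inactive X chromosome, had 8.26 and 2.82 and the Y-linked Kdm5d 2.50 and 5.44, so the arrays also differ in sex-linked genes. With 1 array per group, that difference coincides with the fucose treatment and cannot be separated from it. Its part in the members' differences was not tested.

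**Figure D5:**
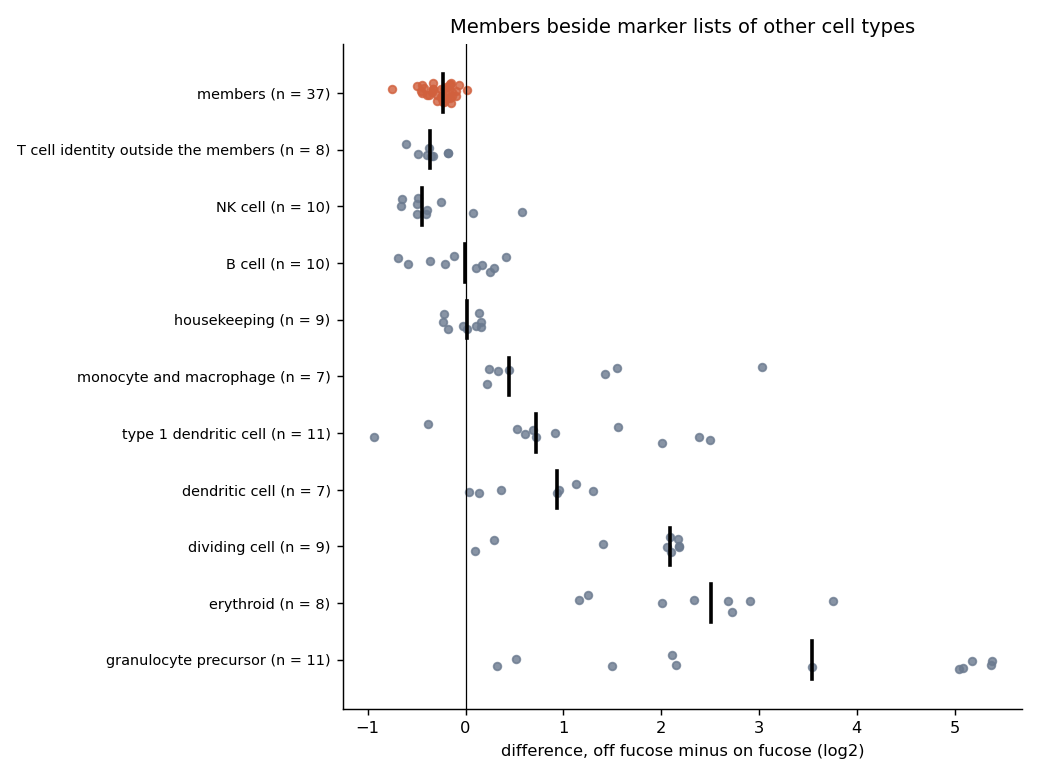
Log2 difference, off fucose minus on fucose, of each gene of the members and of marker lists of other cell types (points, spread vertically for sight), with the median of each list as a black bar. The members cluster at -0.23 beside the T cell identity genes (-0.36), and the granulocyte precursor (3.54) and erythroid (2.51) lists lie far to the right.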

How the data were processed

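The deposited table held linear intensities for 41345 probe sets on 2 arrays, which the authors had summarised and normalised; the submitters' processing notes name RMA, and its version, settings and the genome build are not given in the sources used here. The values were read as turned back from RMA's usual log2 scale, and log2 was taken. Such normalisation hides a shift common to all genes. Gene names came from the platform annotation, which gave 23521 probe sets 1 symbol; a gene with several was represented by the brightest. No expression filter was used, since levels are compared to all 22180 genes or to the top 20% by mean level. Ranks were percentiles within an array. Calls were 1.5-fold and 2-fold. With 1 array per group there was no test, and the number of arrays limits the precision. All 38 members were named; other signalling genes and paralogues were named at 1.5-fold or more, and further paralogues and markers to describe their lists. Rasgrp2, Prkcb, Prkcd, Grap, Dgkz, Cbl, Xist, Kdm5d, Xcr1, Itgax, Klrb1c and Ncr1 were chosen after their values were seen. The pairing of paralogues and the promoter strings were chosen after the values of the members were seen. Alternatives were other scalings, filters and the mean of probe sets. The members and lists were chosen with earlier results of these data known. Calculations used Python 3.11.15, pandas 2.3.3 and statsmodels 0.14.6 and were tested on simulated data. Promoter windows came from RefSeq tables of GRCm38.p6.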

Additional observations from a re-analysis of the deposited data

How the results depend on the processing

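All settings were planned, but some could not change the members' values. Each member had 1 probe set, so the mean of probe sets left it as it was. The filters only chose which genes were kept, and the one at the median level kept all 37. Centring on all genes moved values by only 0.0008. The settings that could alter the count were quantile normalisation, housekeeping centring and loess. With quantile normalisation and with housekeeping centring, 36 of 37 members were lower off fucose. Under loess 35 of 37 were lower. The filter at the top 20% of genes, without any rescaling, kept 36 members, of which 35 were lower. The members' median ran from -0.25 with housekeeping centring to -0.18 with loess, and no setting moved the median of all genes by over 0.1. Trat1 was the only member at least 1.5-fold lower under each of them. Ranked among the top 20% of genes alone, the members' median percentile was 89.4 on fucose and 86.0 off fucose, because fewer genes were ranked. No paired analysis was possible because there was a single array on each side, which also leaves none to omit. The precision of dim paralogues was not measured.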

Other observations

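The Gimap genes encode GTPases that support the survival of resting lymphocytes, and the family was added after the members' values were seen. All 8 measured were lower off fucose, with a median of -0.28 and a range from -0.40 to -0.18. Gimap4, the brightest, had 9.85 and 9.53 (-0.32). Gimap5, which naive T cells need to persist, had 8.86 and 8.59 (-0.26), Gimap9 had 7.99 and 7.81 (-0.18) and Gimap1 5.47 and 5.08 (-0.40). None was at least 1.5-fold lower, against 2.28% of all genes. Under each scaling tried, all 8 were lower, with a median of -0.20 under loess.

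Slam receptors and their adaptors, added in the same way, went both ways, with 5 of 12 lower and a median of 0.06. Lower values were those of Ly9 at 9.18 and 8.84 (-0.34), Cd84 at 7.15 and 6.89 (-0.25) and Sh2d1a, the adaptor SAP, at 6.50 and 5.94 (-0.56), beside Slamf6 at -0.72. Cd48, a ligand of many blood cells, had 9.97 and 9.89 (-0.08), Slamf1, a receptor of T cells among others, had 5.76 and 5.85 (0.09), and Slamf7 had 5.92 and 5.98 (0.06). Cd244a, a receptor of NK and myeloid cells, had 3.19 and 4.25 (1.06), and Slamf8, a receptor of macrophages, had 3.82 and 4.42 (0.60).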
